A study of Mus musculus with 16 samples.

Results

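Gene expression in quadriceps muscle was compared between HSALR mice given saline and wild-type (WT) mice given saline. The comparison used the 8 arrays whose labels give these genotypes and saline, 4 per genotype, of the 16 Illumina bead arrays of the study. The other 8 arrays hold muscle from HSALR mice given 1 of 2 antisense oligos. Both saline groups were adult mice on the FVB/n background, given subcutaneous saline biweekly for 4 weeks. They differ by the HSALR transgene, a human skeletal actin gene with an expanded CTG repeat in its noncoding end, whose own promoter drives it in skeletal muscle. The labels name no line, zygosity, sex or exact age, and no transgenic control without the repeat was analysed here. Total RNA from the whole muscle, 100 ng per sample, was amplified once and labelled with biotin.

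The HSALR mouse is a model of myotonic dystrophy. In that disease RNA with expanded CUG repeats stays in the nucleus, binds splicing regulators of the muscleblind (MBNL) family and so shifts the splicing of many muscle transcripts towards forms seen in immature muscle. Mis-splicing of the chloride channel Clcn1 leaves the fibre membrane easily excited, and muscles relax slowly after contraction, which is called myotonia.

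All 4 HSALR saline arrays lay on 1 chip and all 4 WT saline arrays on the other, so chip and genotype cannot be told apart in any difference between them. The chip of the WT arrays also held 4 arrays of HSALR mice given the oligo ASO 190401. Values of that group against the same WT arrays are set beside the main ones as same-chip values. They share the WT arrays with the main comparison and differ from it by the oligo as well as by the chip. Whether each sample is a separate animal is not given in the labels. The p-values therefore rest on the spread of these samples alone, and precision is limited by having 4 arrays per group. Between 11105 and 11419 probes lay above background on the HSALR arrays and between 10835 and 11345 on the WT arrays, of 25697. The raw 75th percentile of intensity was 102.8 to 120.1 on the HSALR arrays and 128.75 to 150.5 on the WT arrays, before normalization. Over the genes tested, arrays correlated at 0.988 to 0.992 within HSALR, 0.978 to 0.990 within WT and 0.960 to 0.969 between the groups.

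Many genes differed between the genotypes, and most of the differences were small. Of 8725 genes tested 27.2% were called, meaning a limma adjusted p under 0.05. Of all genes 14.1% (1227) were higher in HSALR and 13.1% (1146) were lower. Below, differences are HSALR saline minus WT saline on the log2 scale, values after ± are standard errors of the fit with n = 4 per group, and values for single arrays are log2 normalized intensities in the order of replicates 1 to 4. Because the RNA came from whole muscle, fewer cells of a type and less RNA per cell cannot be told apart in any of these values. The median over all genes was -0.017. Among the called genes 53.4% differed by less than 1.5-fold, while 218 higher and 106 lower genes differed at least 2-fold. At 4-fold or more the numbers were 38 and 7, at 8-fold or more 17 and 4, and at 16-fold or more 13 and 0. The 4 arrays of 1 genotype all lay above the 4 of the other for 1018 of the higher and 882 of the lower genes. Over all genes, called or not, the HSALR arrays lay wholly above for 13.7% (1198) and wholly below for 12.4% (1083). Counts ran from 1020 to 1284 higher and from 905 to 1232 lower when 1 array was left out. With median scaling in place of quantile normalization they were 954 higher and 946 lower. Tested against a minimum change of 1.2-fold, 472 of the higher and 263 of the lower genes remained. In the same-chip comparison 10.4% of genes were called, 5.09% higher and 5.31% lower.

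**Figure D1:**
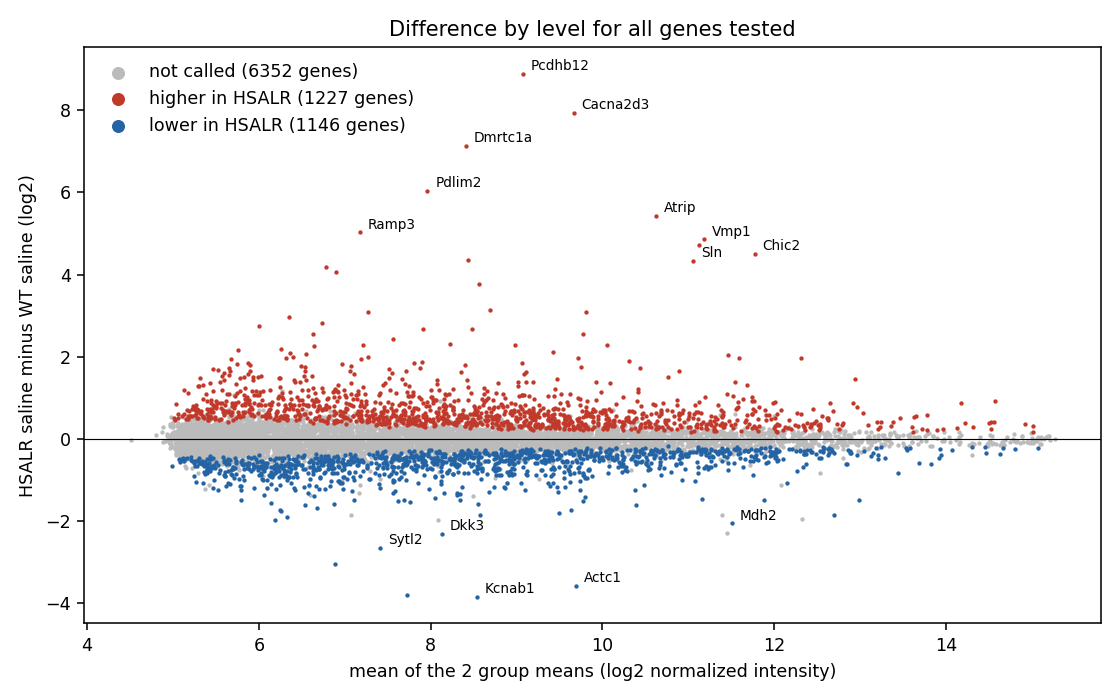
Difference between HSALR saline and WT saline (vertical axis, log2) against the mean of both group means (horizontal axis, log2 normalized intensity) for the 8725 genes tested, 1 point per gene. The 1227 genes called higher are red, the 1146 called lower are blue, and the labelled points reach 8.90 upwards and -3.85 downwards; for genes below background on all WT arrays the height of the point is no measure of size.

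A principal component analysis of the 8 arrays placed the genotypes apart on the first component, which held 56.5% of the variance. WT lay between -27.05 and -16.97 and HSALR between 19.98 and 24.99. The second component held 14.5% and set WT replicate 1 apart, at 26.999 against -12.06 to 3.11 for the other WT arrays.

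The largest rises were in genes nearly silent in WT muscle. Pcdhb12 encodes a protocadherin, a cell adhesion protein of the beta cluster known from neurons. Its values were 13.57, 13.59, 13.53 and 13.38 on the HSALR arrays and 4.88, 4.45, 4.59 and 4.57 on the WT arrays. The gene was below background on every WT array, and the rise was at least 283-fold (adjusted p = 6.34e-19). Cacna2d3, an auxiliary alpha2-delta subunit of voltage-gated calcium channels, stood at 13.67, 13.61, 13.68 and 13.58 on the HSALR arrays and 4.91, 6.87, 5.72 and 5.31 on the WT arrays. It rose by 7.94 ± 0.26 (adjusted p = 5.38e-14), with 2 of the 4 WT arrays above background. The HSALR arrays lay close together for both genes, while WT replicate 2 stood above the other WT arrays for Cacna2d3. Dmrtc1a, a member of the DMRT family of transcription factor genes, was below background on all WT arrays and rose at least 97.3-fold (adjusted p = 1.35e-13). The same-chip differences of these genes, on the log2 scale and not as bounds, were 8.103 ± 0.14 for Pcdhb12, 7.97 ± 0.26 for Cacna2d3 and 5.84 ± 0.25 for Dmrtc1a.

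A second group of large rises was in genes above background in both genotypes. Atrip, the partner protein of the DNA damage kinase ATR, stood at 13.33, 13.26, 13.37 and 13.37 on the HSALR arrays and 8.33, 8.07, 7.25 and 7.98 on the WT arrays, a rise of 5.43 ± 0.18 (adjusted p = 5.38e-14). Slc25a33, a mitochondrial carrier of pyrimidine nucleotides, rose by 4.72 ± 0.15, from 8.93, 8.89, 8.76 and 8.47 on the WT arrays to 13.53, 13.49, 13.49 and 13.43 on the HSALR arrays. Chic2, a membrane-associated protein gene, rose by 4.496 ± 0.11, and its second probe differed by 3.72. In each of these 3 genes the lowest HSALR array lay far above the highest WT array. The same-chip differences were 5.25 ± 0.18 for Atrip, 4.23 ± 0.15 for Slc25a33 and 4.32 ± 0.11 for Chic2. Vmp1, which encodes a membrane protein needed for autophagy, rose by 4.86 ± 0.12 by its brightest probe, while its other probe differed by 0.38 and the mean of both by 2.62. Tsr2, a factor of ribosome assembly, rose by 4.35 ± 0.22 by its brightest probe, with 0.40 at its other probe and 2.37 for the mean. Outside this group, the probes of Pdlim2, a PDZ and LIM domain protein of the actin cytoskeleton, disagreed in sign. Its brightest probe was below background on all WT arrays and at least 48.7-fold higher in HSALR, while the other probes differed by -0.43 and -0.42. The mean of its probes was higher by 1.73.

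Sln encodes sarcolipin, a small inhibitor of the calcium pump of the sarcoplasmic reticulum. Its values were 12.59, 13.32, 13.45 and 13.504 on the HSALR arrays and 6.803, 9.65, 9.79 and 9.32 on the WT arrays. It rose by 4.33 ± 0.44 (adjusted p = 9.05e-07), and WT replicate 1 lay far below the other WT arrays. When 1 array was left out the rise was between 3.63 and 4.63. The same-chip difference was 3.82 ± 0.44.

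Several large rises stood at a much smaller difference in the same-chip comparison. Ramp3, which pairs with calcitonin-family receptors and sets their ligand, stood at 9.67, 9.94, 9.44 and 9.69 on the HSALR arrays and 4.49, 4.64, 4.67 and 4.84 on the WT arrays. It was below background on all WT arrays and rose at least 19.9-fold (adjusted p = 2.24e-10). As log2 differences that are not bounds, it stood at 5.03 in the main comparison and 1.19 ± 0.29 on the same chip. Ngfr, the p75 receptor of neurotrophins, rose by 3.095 ± 0.25 from 5.63, 5.96, 5.32 and 5.97 to 8.58, 9.01, 8.78 and 8.901, with 3 of 4 WT arrays above background and a same-chip difference of 1.04 ± 0.25. Idi2, an isomerase of the isoprenoid pathway known from skeletal muscle, was below background on all WT arrays and rose at least 11.3-fold. Its same-chip difference, on the log2 scale and not a bound, was 1.64 ± 0.23. Cpne2, a calcium-dependent membrane-binding protein of the copine family, rose by 3.13 ± 0.22, with a same-chip difference of 1.77 ± 0.22. The differences between the 2 comparisons were not tested.

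**Figure D2:**
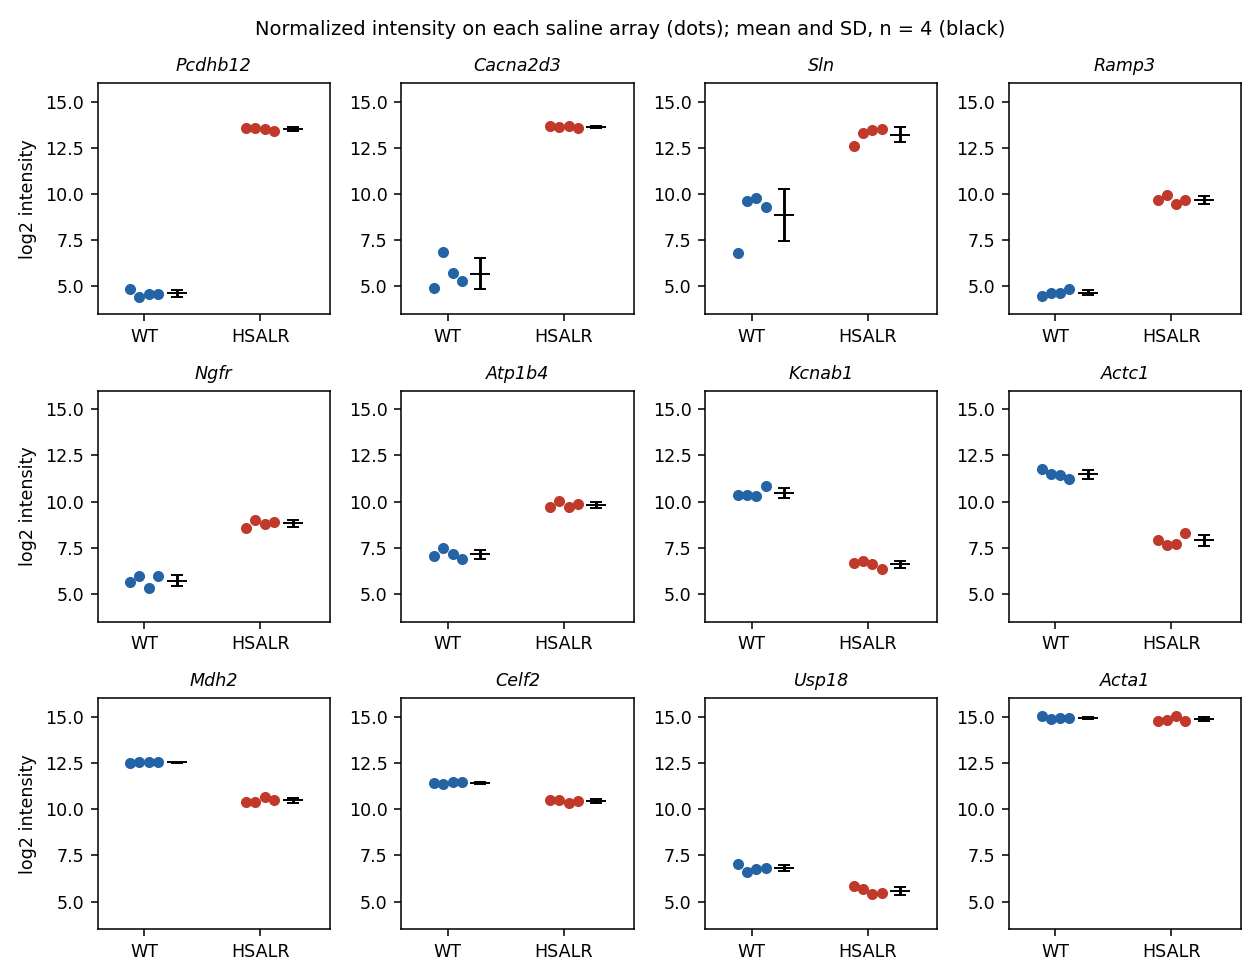
Log2 normalized intensity (vertical axis) of 12 genes on each of the 4 WT saline arrays (blue) and 4 HSALR saline arrays (red), with the mean and SD beside them in black (n = 4). Pcdhb12, Cacna2d3, Sln, Ramp3, Ngfr and Atp1b4 were higher on all HSALR arrays, Kcnab1, Actc1, Mdh2, Celf2 and Usp18 were lower on all of them, and Acta1 overlapped.

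Among genes whose groups did not overlap, the largest falls were in Kcnab1 and Actc1. Kcnab1 encodes a beta subunit of voltage-gated potassium channels. Its values were 6.69, 6.79, 6.61 and 6.36 on the HSALR arrays and 10.34, 10.38, 10.31 and 10.83 on the WT arrays, a difference of -3.85 ± 0.18 (adjusted p = 9.76e-12). All HSALR arrays lay below all WT arrays, the second probe differed by -3.65, and the same-chip difference was -2.23 ± 0.18. Actc1, the cardiac actin that fetal skeletal muscle also uses, stood at 7.94, 7.65, 7.71 and 8.29 on the HSALR arrays and 11.78, 11.51, 11.42 and 11.203 on the WT arrays. The difference was -3.58 ± 0.23 (adjusted p = 1.38e-09), the second probe gave -3.49, and the same-chip difference was -3.09 ± 0.23. Sytl2, an effector of vesicle transport, fell with a difference of -2.65 ± 0.15, and Dkk3, a secreted protein of the Dickkopf family, fell with -2.32 ± 0.20 and -2.14 at its second probe. Their same-chip differences were -2.801 ± 0.15 and -2.43 ± 0.20.

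Mdh2, the malate dehydrogenase of the mitochondrial citric acid cycle, fell from 12.499, 12.55, 12.56 and 12.54 on the WT arrays to 10.36, 10.39, 10.68 and 10.49 on the HSALR arrays. The difference was -2.06 ± 0.083 (adjusted p = 1.07e-12), against -1.795 ± 0.083 on the same chip, and the WT arrays lay very close together. Ntrk2, which encodes TrkB, the receptor of brain-derived neurotrophic factor, fell with -1.68 ± 0.22 and -1.59 ± 0.22 on the same chip. F2rl3, a thrombin receptor, fell with -1.89 ± 0.16, being above background on 1 HSALR array and all WT arrays, and its same-chip difference was -0.21 ± 0.16. Trf, which encodes the iron carrier transferrin, fell with -1.54 ± 0.35, and Htra1, a secreted serine protease, with -1.49 ± 0.13. Grb10, an adaptor that dampens insulin and IGF receptors, fell with -1.51 ± 0.15, and Tiam1, an activator of Rac, with -1.498 ± 0.17.

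**Figure D3:**
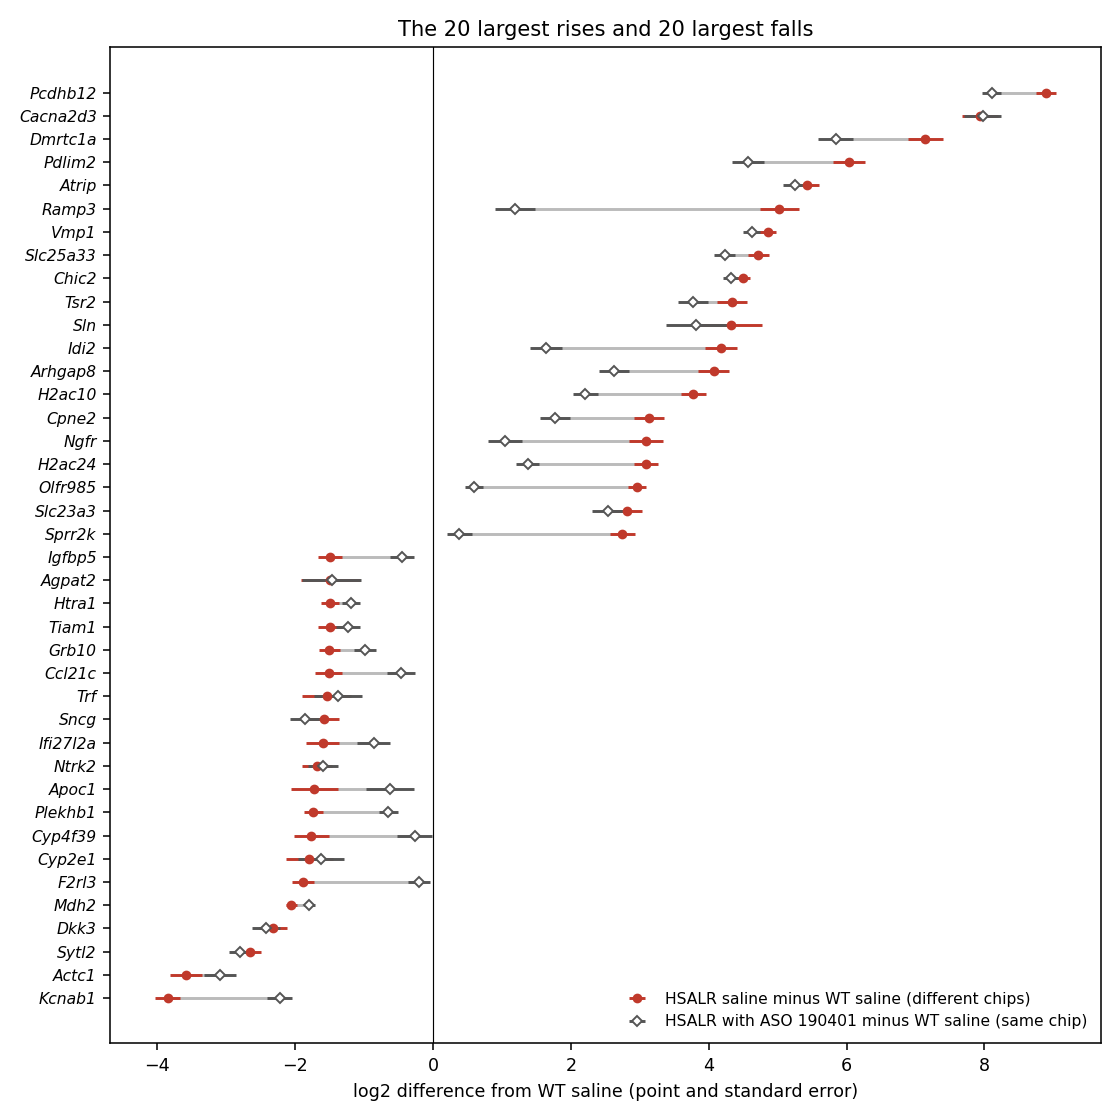
The 20 largest rises and 20 largest falls among called genes whose groups do not overlap, as log2 differences from WT saline with standard errors (horizontal axis). Red circles are HSALR saline on the other chip and open diamonds are HSALR mice given ASO 190401 on the chip of the WT arrays; both use the same 4 WT arrays, and Ramp3 and Ngfr lie far apart in the 2 comparisons (5.03 and 1.19, 3.10 and 1.04) while Cacna2d3 does not (7.94 and 7.97).

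The muscle identity of the samples showed in both genotypes. All 14 of the 15 identity genes on the array that were tested lay above background on all 8 arrays, and their summed intensity was 399378 to 415981 on the HSALR arrays and 384835 to 420727 on the WT arrays. Mouse Acta1, skeletal actin, was not called (-0.073 ± 0.059, adjusted p = 0.388). Its values were 14.79, 14.83, 15.03 and 14.79 on the HSALR arrays and 15.02, 14.88, 14.93 and 14.91 on the WT arrays. Probe sequences were not used here, and cross-detection of the human transgene by this probe was not tested. Of the 4 actin genes tested Actc1 was the called member.

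Among splicing regulators of the MBNL, CELF and RBFOX families, Celf1 and Celf2 were called in opposite directions. The MBNL genes Mbnl1 and Mbnl2 were not called, and Mbnl3 was on the array but below the detection filter. Mbnl1 stood at 0.055 ± 0.093 (adjusted p = 0.702) and Mbnl2 at -0.14 ± 0.086 (adjusted p = 0.246). Celf2, an RNA-binding protein of splicing and mRNA stability, had values of 10.497, 10.48, 10.31 and 10.45 on the HSALR arrays and 11.41, 11.34, 11.46 and 11.48 on the WT arrays. It fell with a difference of -0.99 ± 0.066 (adjusted p = 2.76e-09) and -0.85 at its second probe, and the same-chip difference was -0.13 ± 0.066. Celf1, which favours embryonic splice forms of several muscle transcripts, rose by 0.42 ± 0.11, and Rbfox2, a splicing regulator also active in developing muscle, by 0.81 ± 0.19 with 0.80 at its second probe. Of the 6 genes of this list tested 2 were higher and 1 lower (50% called, against 27.2% of all genes), with a median of -0.042. With the mean of a gene's probes in place of the brightest probe, 3 were lower, among them Mbnl2 at -0.28 (adjusted p = 0.0344).

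Of 35 genes of hnRNP, SR and helicase proteins, the general RNA-binding machinery of splicing, 3 were higher and 7 lower, with a median of -0.18. This is 28.6% called, near the share of all genes. Hnrnph1 was lower at all 5 of its probes. Its brightest probe stood at 9.06, 9.31, 9.095 and 9.03 on the HSALR arrays and 10.44, 10.196, 10.27 and 10.52 on the WT arrays, a difference of -1.23 ± 0.14 (adjusted p = 2.98e-06), and the others differed by -0.87 to -0.50. Srsf6, an SR protein, fell with -0.39 ± 0.10, while Srpk3, a muscle kinase of SR proteins, rose by 0.51 ± 0.094. Without HSALR replicate 2 the lower members numbered 4.

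Of 28 genes whose transcripts are mis-spliced in myotonic dystrophy 9 were higher and 6 lower, with a median of 0.18. This list is of levels and not of splice forms, and 53.6% of it was called, against 27.2% of all genes. Camk2d, a calcium-dependent kinase, rose by 2.01 ± 0.19 at its brightest probe. Its other probes gave 0.95 and -0.19, so the probes of this gene do not move together and their mean was higher by 0.92. Ldb3, the Z-disc protein also called ZASP, stood at 11.57, 11.72, 11.57 and 11.56 on the HSALR arrays and 12.58, 12.84, 12.704 and 12.59 on the WT arrays. It fell with -1.07 ± 0.15 and -0.75 at its second probe. Pdlim3, a Z-disc protein, rose by 0.42 ± 0.062 and 0.64, Nrap, a scaffold of growing myofibrils, by 0.55 ± 0.081, and Bin1, which shapes the transverse tubules, by 0.42 ± 0.086. One further probe of Bin1 gave 2.75, and the mean of its probes 1.16. Clcn1 was lower by its brighter probe (-0.49 ± 0.16, adjusted p = 0.026), with overlapping groups and a call that ended in 8 alternatives, among them leaving out WT replicate 2, 3 or 4 or HSALR replicate 1 or 3 and the mean of its 2 probes (-0.29, adjusted p = 0.0647). Lower members numbered 2 under median scaling and 3 without WT replicate 2 or HSALR replicate 3.

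Genes of excitation-contraction coupling, which links the fibre's action potential to calcium release, were called higher in 8 of 16 cases and lower in 2. The median was 0.30, and 62.5% were called against 27.2% of all genes. Lower members numbered 1 without WT replicate 1 or 2 or HSALR replicate 2, 3 or 4. Beside Cacna2d3, the subunits of the muscle calcium channel Cacng1 and Cacnb1 rose by 0.69 ± 0.12 and 0.59 ± 0.11. The same-chip values were -0.037 ± 0.12 for Cacng1 and 0.61 ± 0.11 for Cacnb1, and the other Cacnb1 probe differed by 0.07, giving a mean of 0.33. Jsrp1, a protein of the calcium release site, rose by 0.52 ± 0.10. Fkbp1a, which binds and steadies the calcium release channel, fell from 11.33, 11.13, 11.16 and 11.2 on the WT arrays to 10.56, 10.76, 10.57 and 10.65 on the HSALR arrays, a difference of -0.57 ± 0.071 and of -0.48 ± 0.071 on the same chip. Ryr1, the release channel itself, rose by 0.42 ± 0.10 at its brightest probe, while its other 3 probes gave 0.03, 0.12 and -0.07 and their mean was not called (0.13, adjusted p = 0.573).

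Of 22 genes of the calcium store and pump 2 were higher and 4 lower. This is 27.3% called, near the 27.2% of all genes. Beside Sln, calmodulin genes fell, the sensors through which calcium acts on many enzymes. Calm3 stood at 11.86, 12.03, 11.73 and 11.89 on the HSALR arrays and 12.87, 12.56, 12.52 and 12.67 on the WT arrays, a difference of -0.78 ± 0.082, and Calm2 differed by -0.64 ± 0.09. Casq1, which holds calcium in the store of fast fibres, fell with -0.59 ± 0.13. Atp2a1, the pump of fast fibres, was lower at -0.23 ± 0.064, a call that ended under median scaling (-0.13, adjusted p = 0.262). The higher members numbered 1 under several alternatives, among them an offset of 50, median scaling and leaving out WT replicate 2.

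Of 23 subunits of chloride, sodium and potassium channels and of the sodium pump 8 were higher and 3 lower, with a median of 0.17. The share called was 47.8%, against 27.2% of all genes. Without WT replicate 4 or HSALR replicate 3 the lower ones numbered 1. Beside Kcnab1, the largest change was in Atp1b4, a muscle protein of the sodium pump beta family that in mammals sits in the nuclear envelope. Its values were 9.71, 10.02, 9.69 and 9.86 on the HSALR arrays and 7.03, 7.49, 7.15 and 6.899 on the WT arrays, a rise of 2.68 ± 0.14 (adjusted p = 6.58e-11). The HSALR arrays lay far above the WT arrays, and the same-chip difference was 0.699 ± 0.14. Atp1b2, another beta subunit, rose by 0.67 ± 0.14. Kcnc4, a fast potassium channel, rose by 0.87 ± 0.12 with 1.08 at its second probe, and Kcna7, a channel of the Shaker family, by 0.68 ± 0.16. Kcnip2, a subunit that tunes A-type potassium channels, was below background on all WT arrays and rose at least 1.6-fold. Hcn2, a channel opened by hyperpolarisation, rose by 1.16 ± 0.22 with 2 WT arrays above background (0.74 with a background offset of 50 and 1.81 in the authors' values).

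At the neuromuscular junction, the synapse of motor nerve and fibre, 7 of 15 genes tested were higher and 0 lower. Of all genes 14.1% were higher and 13.1% lower. The median of the 15 genes was 0.44. Many of these are also known to rise in denervated fibres. The acetylcholine receptor subunit Chrna1 stood at 9.46, 9.87, 9.898 and 9.98 on the HSALR arrays and 9.26, 9.15, 8.799 and 9.05 on the WT arrays. It rose by 0.74 ± 0.17 and 0.80 at its second probe. Chrng, the fetal subunit, rose by 1.51 ± 0.26 with 1 WT array above background (0.96 with an offset of 50 and 2.75 in the authors' values) and stood at 2.42 ± 0.26 on the same chip. Chrne, the adult subunit, rose by 0.802 ± 0.21 with overlapping groups. Gdnf, a trophic factor for motor neurons, was below background on all WT arrays and rose at least 2.45-fold. Musk, the kinase that clusters the receptors, was likewise below background in WT and rose at least 1.82-fold. Ncam1, an adhesion molecule spread over denervated fibres, rose by 1.34 ± 0.17 at its brightest probe and differed by -0.42 at the other, with a mean of 0.46. Among genes above background on all 8 arrays, 4 members of this list were higher. Receptors of neurotrophins went different ways, with Ngfr higher and Ntrk2 lower. So did the partners of calcitonin-family receptors, with Ramp3 higher and its relative Ramp2 lower at -0.55 ± 0.12.

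Developmental and denervation-induced genes were called higher in 9 of 16 cases and lower in 1, with a median of 0.89. The share called was 62.5%, against 27.2% of all genes. The members came from several families. Myh8, perinatal myosin, stood at 8.72, 8.04, 7.94 and 8.76 on the HSALR arrays and 6.55, 6.21, 6.55 and 7.34 on the WT arrays. It rose by 1.705 ± 0.26 and 0.99 at its second probe, and WT replicate 4 was the highest WT array. Myl4, the embryonic light chain shared with the heart's atria, rose by 1.05 ± 0.15. Cdkn1a, the p21 inhibitor of the cell cycle, rose by 1.58 ± 0.15, with 1.80 and 0.95 at its other probes. Ankrd1, a stretch-responsive cofactor of titin, rose by 1.18 ± 0.18. Actc1, which is abundant in developing muscle, was the member that fell. Among myogenic transcription factors 4 of 14 were higher and 0 lower, or 2 lower without WT replicate 1 and 1 without WT replicate 2. With all arrays 28.6% of them were called, near the 27.2% of all genes. Myf6, the factor of adult fibres, rose by 0.601 ± 0.11, Eya4, a transcriptional cofactor of the eyes absent family, by 0.97 ± 0.21, and Tead4, which binds MCAT promoter elements, at least 2.08-fold from below background on all WT arrays.

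**Figure D4:**
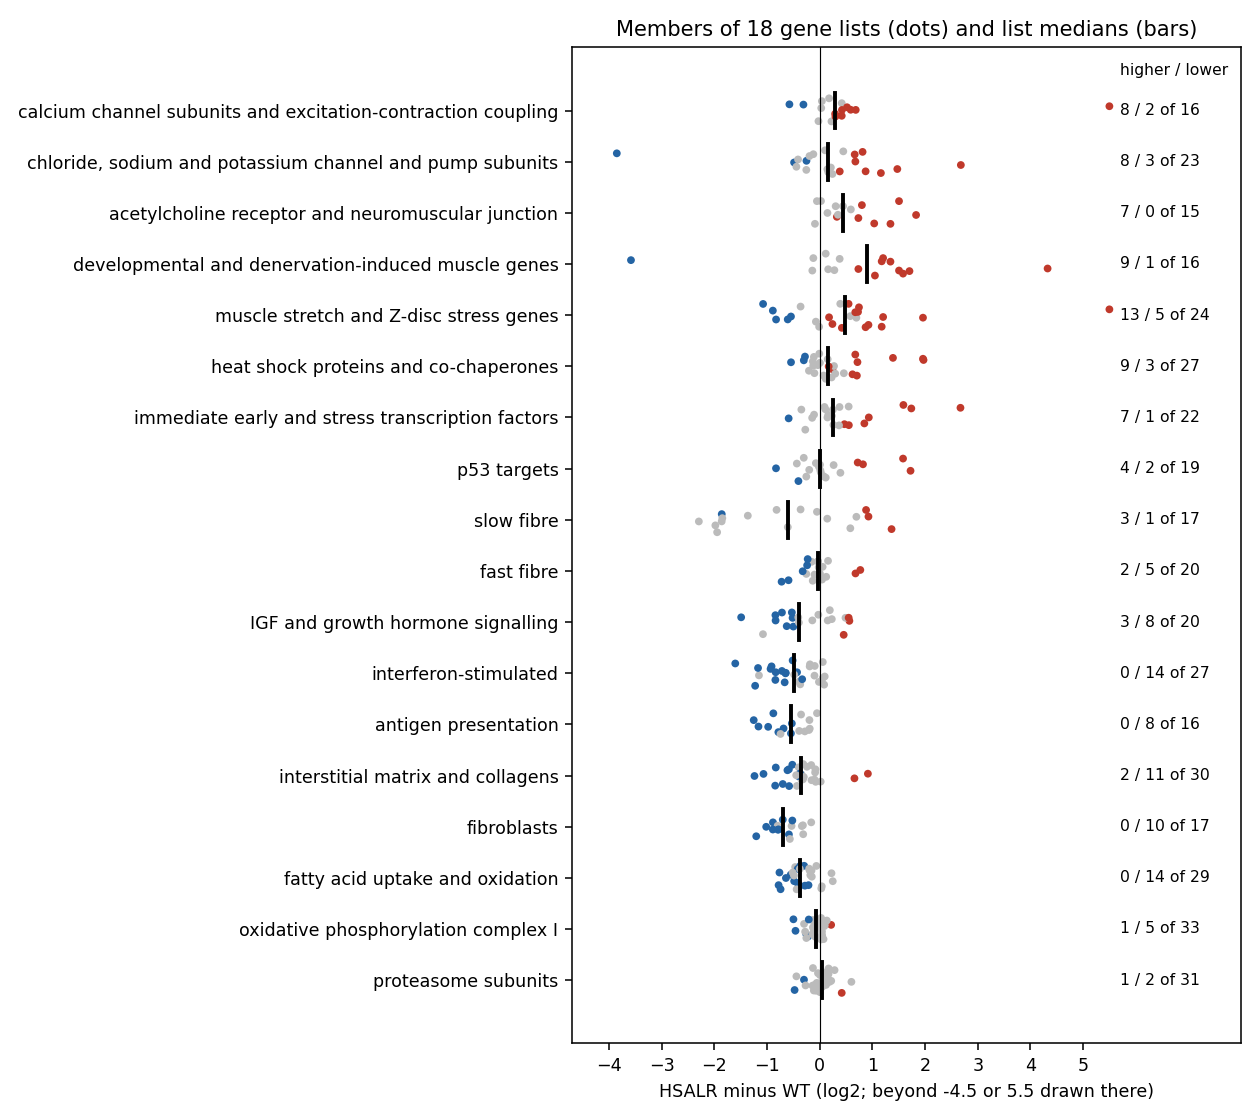
Log2 difference between HSALR saline and WT saline (horizontal axis) for the tested members of 18 gene lists (1 dot per gene; red called higher, blue called lower, grey not called), with the list median as a black bar and the called members counted at the right. Lists such as interferon-stimulated genes (0 higher, 14 lower of 27) and neuromuscular junction genes (7 higher, 0 lower of 15) lie to 1 side, and complex I and proteasome genes lie around 0.

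Genes of the Z-disc and of muscle stretch moved in both directions. Of 24 tested 13 were higher and 5 lower, against 14.1% and 13.1% of all genes, with a median of 0.49. Hspb7, a small heat shock protein that tends thin filaments, stood at 12.72, 12.58, 12.63 and 12.36 on the HSALR arrays and 10.43, 11.23, 10.58 and 10.21 on the WT arrays. It rose by 1.96 ± 0.18 (adjusted p = 2.75e-07), with no overlap, and the same-chip difference was 0.21 ± 0.18. Hspb8, which helps to remove damaged Z-disc protein, rose by 0.68 ± 0.072, and Fhl1, a LIM protein of the sarcomere, by 0.93 ± 0.083. Ankrd23, a titin-binding relative of Ankrd1, fell with -0.83 ± 0.083, so relatives in this family moved in opposite directions. Lower members numbered 3 with chip position as a covariate and without WT replicate 2 or HSALR replicate 1, 2 or 4. Dystrophin complex and sarcolemma repair genes were higher in 3 of 21 cases and lower in 2. This is 23.8% called, near the 27.2% of all genes. Their lower members numbered 1 without WT replicate 2 or 3 and 0 without HSALR replicate 3. Cav3, the caveolin of the muscle membrane, was higher by 0.95 ± 0.16.

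Heat shock proteins and their partners were higher in 9 of 27 cases and lower in 3, which is 44.4% called against 27.2% of all genes. Under median scaling and without WT replicate 4 or HSALR replicate 3 or 4 the lower ones numbered 1. Hspa2, an HSP70 relative, stood at 10.55, 10.75, 10.68 and 10.82 on the HSALR arrays and 9.01, 8.48, 8.73 and 8.69 on the WT arrays. It rose by 1.97 ± 0.13 (adjusted p = 1.79e-09) with 2.04 at its second probe. Hspa1l, another HSP70 relative, rose by 1.39 ± 0.17, Hspb1 by 0.72 ± 0.13 and the muscle chaperone Hspb3 by 0.71 ± 0.081. The members that rose most were small heat shock proteins and HSP70 relatives, and their same-chip differences were 0.97 ± 0.13 for Hspa2, 0.28 ± 0.17 for Hspa1l and 0.10 ± 0.13 for Hspb1. Of 18 genes of the unfolded protein response 0 were higher and 2 lower, which is 11.1% called against 27.2% of all genes. The lower ones were Cdnf, a secreted factor of the endoplasmic reticulum, at -1.33 ± 0.10, and Asns, asparagine synthetase, at -1 ± 0.21.

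Fibre type genes did not move as a group in 1 direction. Of 20 fast fibre genes 2 were higher and 5 lower, and of 17 slow fibre genes 3 were higher and 1 lower. The shares called were 35% of the fast and 23.5% of the slow genes, against 27.2% of all genes. Myh1, the myosin of fast 2X fibres, stood at 13.53, 13.28, 13.34 and 13.27 on the HSALR arrays and 12.66, 12.52, 12.43 and 12.71 on the WT arrays. It rose by 0.77 ± 0.11 (adjusted p = 2.56e-05) with 1.22 at its second probe, against 0.032 ± 0.11 on the same chip. Myh4, the myosin of 2B fibres, stood at -0.15 ± 0.073 and was not called (adjusted p = 0.138). Tpm1, the fast tropomyosin, fell with -0.72 ± 0.14. Myh7, slow myosin, had values of 7.08, 4.67, 7.08 and 4.82 on the HSALR arrays and 5.69, 8.196, 7.37 and 7.86 on the WT arrays, a difference of -1.36 ± 0.64 that was not called (adjusted p = 0.122), with 2 HSALR arrays above background. The slow fibre list varied between arrays of the same genotype. As the mean deviation from each gene's average over the 8 arrays, HSALR replicates 2 and 4 lay at -1.07 and -1.04, HSALR replicates 1 and 3 at 0.40 and 0.49, and WT replicate 1 at -0.59 against 0.37 to 1.03 for the other WT arrays. The list's median was -0.604, and its lower members numbered 8 without WT replicate 1, 6 without HSALR replicate 1 or 3 and 0 without WT replicate 2, 3 or 4 or HSALR replicate 2 or 4. Its higher members numbered 5 without WT replicate 2. Lower fast fibre members numbered 2 under median scaling and 3 without WT replicate 1 or HSALR replicate 2. The slow fibre members that rose were Smtnl1, a phosphatase regulator, by 1.37 ± 0.15, the Z-disc crosslinker Actn2, by 0.88 ± 0.11, and Fhl1.

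Stress-responsive transcription factors were higher in 7 of 22 cases and lower in 1, which is 36.4% called against 27.2% of all genes. Atf3, a factor induced by many stresses, stood at 9.84, 9.35, 8.998 and 8.804 on the HSALR arrays and 5.86, 6.63, 6.57 and 7.23 on the WT arrays. It rose by 2.67 ± 0.29 (adjusted p = 1.75e-06), and the same-chip difference was 1.66 ± 0.29. Fosb, a partner in the AP-1 complex, rose by 1.59 ± 0.37 with 1 WT array above background (0.998 with an offset of 50 and 3.11 in the authors' values), and Junb by 0.85 ± 0.25. Atf4, the factor of the integrated stress response, fell with -0.59 ± 0.13. The higher members numbered 3 without HSALR replicate 1 and 4 without HSALR replicate 2. Of 19 p53 targets 4 were higher and 2 lower, which is 31.6% called against 27.2% of all genes. Phlda3, an inhibitor of Akt, stood at 11.06, 11.44, 11.41 and 11.302 on the HSALR arrays and 9.49, 9.55, 9.77 and 9.501 on the WT arrays. It rose by 1.73 ± 0.14 with 1.92 at its second probe. Polk, a DNA polymerase that passes lesions, fell with -0.83 ± 0.17. Of 20 cyclin and CDK inhibitor genes 2 were higher and 3 lower, which is 25% called. Ccne2, a cyclin of the start of DNA synthesis, rose by 1.86 ± 0.18 against 0.058 ± 0.18 on the same chip, while Cdkn2c, the p18 inhibitor, fell with -1.07 ± 0.22.

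Of 16 clock genes 3 were higher and 2 lower, which is 31.2% called against 27.2% of all genes. The higher ones numbered 5 without WT replicate 1, and the lower ones 1 without WT replicate 4 or HSALR replicate 1 or 2. Per1, a repressor of the clock, rose by 1.39 ± 0.19 with 1.79 at its second probe, while Arntl, its activator, fell with -0.97 ± 0.25 and overlapping groups. The labels give no time of day of tissue collection. In the list of polyamine and amino acid metabolism 8 of 24 were higher and 4 lower, which is 50% called. Sat1, which acetylates polyamines for export, rose by 0.92 ± 0.10, Azin1, which protects ornithine decarboxylase, by 1.11 ± 0.17, and Odc1, ornithine decarboxylase itself, by 1.02 ± 0.26 with overlapping groups.

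Growth factor signalling genes of the IGF axis were lower in 8 of 20 cases and higher in 3, with a median of -0.40. The share called was 55%, against 27.2% of all genes. Igfbp5, a secreted IGF-binding protein, stood at 12.17, 12.39, 12.01 and 12.39 on the HSALR arrays and 14.18, 13.74, 13.69 and 13.31 on the WT arrays. It fell with -1.49 ± 0.17 (adjusted p = 4.52e-06), and the same-chip difference was -0.45 ± 0.17. Igf1, the growth factor, fell with -0.72 ± 0.18, Igfbp4 with -0.84 ± 0.11 and -0.82 at its second probe, Igfbp7 with -0.51 ± 0.10, and Ghr, the growth hormone receptor, with -0.53 ± 0.10. Mtor, the growth-controlling kinase, rose by 0.55 ± 0.12. Of 26 genes of atrophy and the FoxO and myostatin pathways 5 were higher and 3 lower. The share called in this list was 30.8%, near the 27.2% of all genes. Ddit4, an inhibitor of mTOR signalling, rose by 1.66 ± 0.45 and Depp1, a FoxO target, by 1.33 ± 0.33, both with wide errors. The ubiquitin ligases Fbxo31 and Fbxo30 went apart, at 0.56 ± 0.11 and -0.43 ± 0.10.

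Interferon-stimulated genes, which cells switch on against viruses, were lower in 14 of 27 cases and higher in 0, with a median of -0.48. The background was 13.1% lower and 14.1% higher over all genes. Leaving out 1 array gave 13 to 15 lower, and 5 were lower when tested against a minimum change of 1.2-fold. Of 43 members on the array 27 were tested, and 19 lay above background on all 8 arrays. Ifit1, Irf7, Mx1, Mx2 and Oas1a were among those on the array and below the detection filter. Usp18, which limits interferon signalling, stood at 5.84, 5.67, 5.39 and 5.44 on the HSALR arrays and 7.05, 6.61, 6.79 and 6.795 on the WT arrays. It fell with -1.22 ± 0.16 (adjusted p = 1.29e-05) and -1.04 at its second probe, while the same-chip difference was 0.24 ± 0.16. Irgm2, a GTPase of defence against intracellular microbes, stood at 8.04, 8.05, 8.205 and 8.32 on the HSALR arrays and 9.14, 9.41, 9.68 and 9.06 on the WT arrays, a difference of -1.17 ± 0.21. Gbp2 and Gbp3, guanylate-binding proteins of the same defence, fell with -0.84 ± 0.18 and -0.93 ± 0.20, and Samd9l, an antiviral protein, with -0.65 ± 0.14. Ifi27l2a, a mitochondrial protein induced by interferon, fell with -1.602 ± 0.24, and the transcription factor Irf1 with -0.72 ± 0.16.

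Interferon acts on these genes through a response element, and its letters were looked for in the promoters to show what the list shares in sequence. The motif searched was GAAA, any 2 bases and GAAA again, on either strand, in the 300 bases from 250 before to 50 after each gene's start. It was present in 3.44% of 32851 promoters and in 3.66% of the tested genes with a promoter in the table. Among 20 tested interferon-stimulated genes with a promoter 12 held it, 6 of the 11 called lower and 6 of the 9 not called. Sites of 3 called genes and of 1 gene not called are shown with 20 bases on either side, from RefSeq promoters of GRCm38.p6, 5′ to 3′ on the strand of the gene, with matches in capitals, where Gbp3 holds 2 that overlap. A match is a run of letters and no measured binding site. The neighbours Irgm2 and Igtp, chosen after their values were seen, are identical at 48 of the 50 bases shown, and Igtp was not called, at 0.059 ± 0.23.
Gbp2 (chr3:142620584-142620633, plus strand): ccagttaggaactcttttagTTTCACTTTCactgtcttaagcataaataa
Gbp3 (chr3:142559979-142560028, plus strand): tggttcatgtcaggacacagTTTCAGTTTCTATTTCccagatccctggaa
Irgm2 (chr11:58214893-58214942, plus strand): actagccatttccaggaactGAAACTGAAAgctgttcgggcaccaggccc
Igtp (chr11:58199502-58199551, plus strand): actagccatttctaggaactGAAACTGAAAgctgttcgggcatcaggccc

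Antigen presentation genes, which interferon also induces, were lower in 8 of 16 cases and higher in 0, with a median of -0.54. Of all genes 13.1% were lower and 14.1% higher. B2m, the light chain of class I molecules, stood at 11.42, 11.26, 11.21 and 11.38 on the HSALR arrays and 11.88, 11.93, 12.77 and 12.197 on the WT arrays. It fell with -0.88 ± 0.16 and -0.90 at its second probe. H2-T23 fell with -1.25 ± 0.22, H2-D1 with -0.98 ± 0.25, and Psme1, a proteasome activator of antigen processing, with -0.53 ± 0.11. Cd74, the class II invariant chain found in antigen-presenting cells, fell with -1.16 ± 0.32, or -0.71 without WT replicate 3. WT replicate 3 stood apart over the antigen presentation list, with a summed intensity of 15594 against 7833 to 9422 on the other WT arrays and 5706 to 6563 on the HSALR arrays. As the mean deviation from each gene's average, WT replicate 1 lay at -0.10 and HSALR replicate 1 at -0.12. Leaving out 1 array gave 8 to 10 lower, and 2 were lower when tested against a minimum change of 1.2-fold. Beside both lists, myeloid markers were called lower in 1 and higher in 1 of 17 tested cases. Their median was -0.43, with 16 differences below 0 and 1 above. Their summed intensity was 1677 to 2836 on the HSALR arrays and 1963 to 4356 on the WT arrays. Itgam, Itgb2 and Fcer1g were on the array and below the detection filter. The lower myeloid markers numbered 8 without WT replicate 1, 3 without WT replicate 4 or HSALR replicate 1, 2 without HSALR replicate 2 and 5 in the authors' values, and their part in the interferon result was not tested. All 13 lymphocyte markers on the array were below the filter.

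Fibroblasts make the connective tissue matrix between fibres. Of 17 fibroblast markers 10 were lower and 0 higher, against 13.1% and 14.1% of all genes, with a median of -0.7. Their summed intensity was 15890 to 18511 on the HSALR arrays and 26009 to 29861 on the WT arrays, so the groups did not overlap. Leaving out 1 array gave 8 to 13 lower. Pi16, a marker of the least specialised fibroblasts, stood at 7.98, 8.34, 8.35 and 8.399 on the HSALR arrays and 8.99, 9.62, 9.64 and 9.62 on the WT arrays, a difference of -1.203 ± 0.18 (adjusted p = 6.03e-05). Dpt, a matrix protein, fell with -1.01 ± 0.19, Serping1, a complement inhibitor, with -0.89 ± 0.13, and Pdgfra, the defining growth factor receptor of these cells, with -0.89 ± 0.21. Of 30 interstitial matrix genes 11 were lower and 2 higher (43.3% called, against 27.2% of all genes), with a median of -0.35. Ogn, a small proteoglycan, fell with -1.24 ± 0.14 and -1.03 and -1.17 at its other probes, Dcn, decorin, with -0.58 ± 0.061, and Eln, elastin, with -1.07 ± 0.23. Timp1, an inhibitor of matrix proteases, rose by 0.92 ± 0.19 and Ccn2, a matrix-associated growth factor, by 0.66 ± 0.18. Lower matrix genes numbered 6 without WT replicate 2 or HSALR replicate 4 and 5 without WT replicate 3 or HSALR replicate 3. In the basement membrane Nid1 and Nid2, the nidogens, fell with -0.86 ± 0.11 and -0.63 ± 0.11.

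Markers of other cell types were called in smaller numbers or varied between arrays. Adipocyte markers were lower in 5 of 13 cases (38.5%), against 13.1% of all genes. They were lower in 1 case without HSALR replicate 3, 2 without WT replicate 3 and 3 without WT replicate 2. Their summed intensity was 34399 to 36442 on the HSALR arrays and 38044 to 51851 on the WT arrays, without overlap, as for fibroblasts. Of 6 tenocyte (tendon cell) markers 1 was lower. Their sum was 1160 to 1438 on the HSALR arrays and 1534 to 2127 on the WT arrays, also without overlap. Of 17 endothelial markers 2 were lower, of 12 smooth muscle and pericyte markers 1 was higher, and of 5 erythroid markers 0 were called. Leaving out WT replicate 1 gave 3 lower erythroid and 3 higher smooth muscle and pericyte markers, leaving out WT replicate 4 gave 1 lower erythroid marker, and leaving out WT replicate 4 or HSALR replicate 1 or 4 gave 1 lower endothelial marker. The erythroid sum was 11094 to 32186 on the HSALR arrays and 8251 to 45985 on the WT arrays, so the WT range enclosed the HSALR range. Of 6 Schwann cell and myelin markers 1 was lower, Pmp22, a myelin protein that fibroblasts also make, at -0.903 ± 0.12. The sum of these 6 was 1046 to 1181 on the HSALR arrays and 1555 to 2388 on the WT arrays, again without overlap. Both liver markers tested were called lower. Cyp2e1, a cytochrome P450 enzyme, fell with -1.79 ± 0.33 and differed by -1.63 ± 0.33 on the same chip. Mup2, a urinary protein, was called lower at -3.801 ± 1.05 with overlapping groups, against 0.46 ± 1.05 on the same chip. It was above background on 1 HSALR array, replicate 1 at 8.70, and on all WT arrays, and near-identical copies of it make its values uncertain. The part of these cell types in the other differences was not tested.

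**Figure D5:**
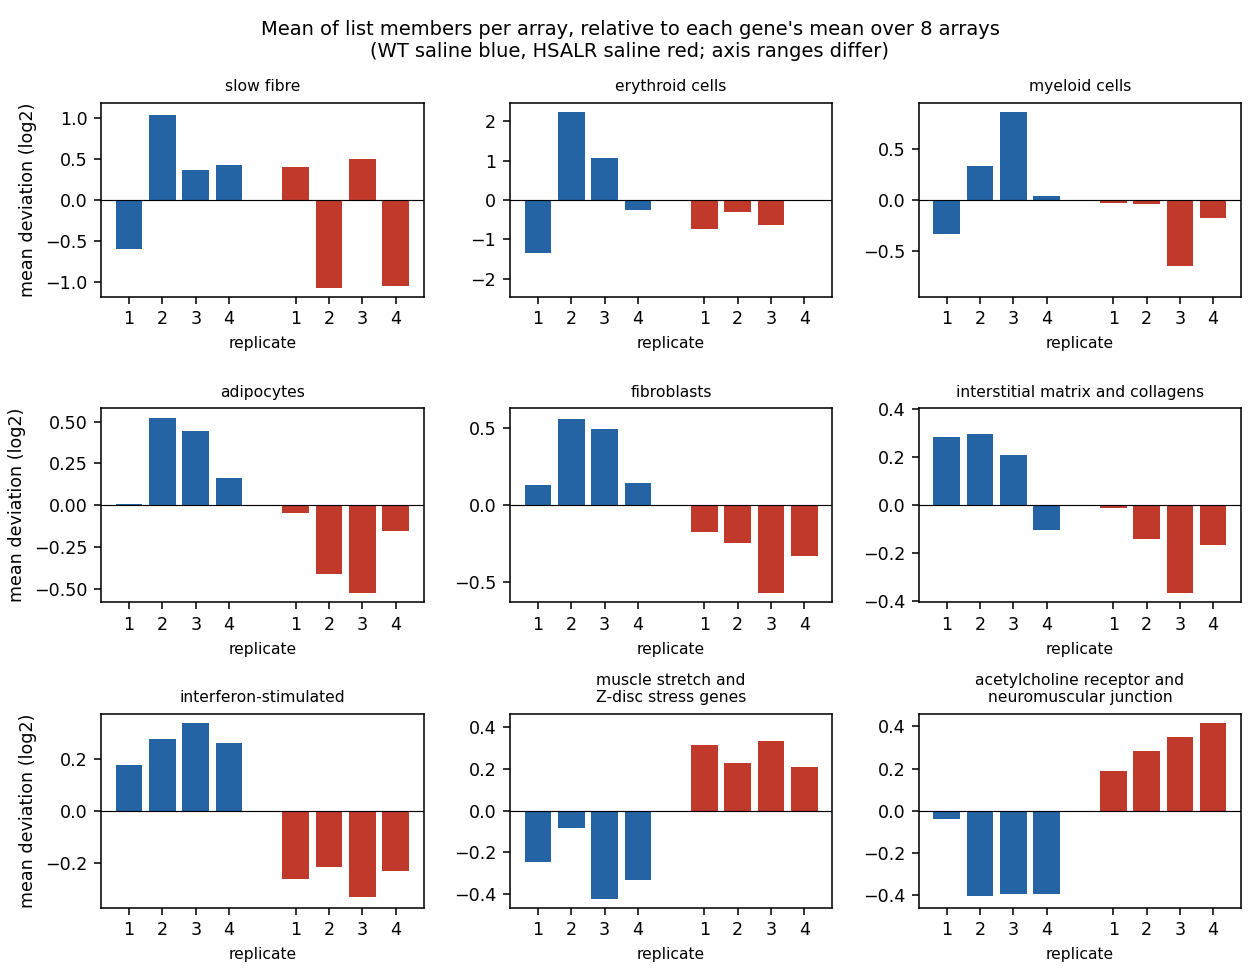
Mean of the tested members of 9 lists on each array, as the deviation from each gene's mean over the 8 saline arrays (vertical axis, log2; ranges differ between panels), for WT saline (blue) and HSALR saline (red) replicates 1 to 4. Interferon-stimulated genes and fibroblast markers were above 0 on all WT arrays and below 0 on all HSALR arrays, while slow fibre genes split the HSALR arrays (0.40, -1.07, 0.49 and -1.04).

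Energy metabolism changed unevenly. Genes of fatty acid uptake and oxidation were lower in 14 of 29 cases and higher in 0, with a median of -0.38. Of all genes 13.1% were lower. Without WT replicate 1, 9 members were lower and 1 higher. Tested against a minimum change of 1.2-fold, 0 members were called. Eci1, an enzyme for unsaturated fatty acids, stood at 11.18, 11.49, 11.66 and 11.33 on the HSALR arrays and 11.95, 11.94, 11.86 and 11.84 on the WT arrays. It fell with -0.48 ± 0.088, Etfdh, which passes electrons on to the respiratory chain, with -0.40 ± 0.083 and -0.62 at its second probe, and Slc25a20, the carnitine carrier, with -0.37 ± 0.084. Lpl, the lipase that frees fatty acids from lipoproteins, fell with -0.39 ± 0.091. In the citric acid cycle list 3 of 24 were higher and 5 lower, which is 33.3% called against 27.2% of all genes. Without WT replicate 1, 7 were higher. Beside Mdh2, its cytosolic relative Mdh1 fell with -0.75 ± 0.16, Dlat, a subunit of pyruvate dehydrogenase, with -0.49 ± 0.075, and Idh3a with -0.36 ± 0.065, while Ppargc1b, a coactivator of mitochondrial genes, rose by 0.69 ± 0.11. Of 29 glycolysis and glycogen genes 5 were higher and 6 lower, which is 37.9% called. Without WT replicate 4 or HSALR replicate 3, 3 were higher. The lower ones numbered 2 under median scaling or without HSALR replicate 2, and 3 without WT replicate 1 or 4. Fbp2, the muscle enzyme that reverses a step of glycolysis, stood at 10.99, 11.77, 11.78 and 11.54 on the HSALR arrays and 9.89, 9.84, 10.05 and 10.22 on the WT arrays. It rose by 1.52 ± 0.17 (adjusted p = 2.25e-06), against 0.065 ± 0.17 on the same chip, and Hk2, hexokinase, rose by 0.55 ± 0.10.

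Genes of large complexes of the cell were called in small numbers that varied with the arrays used. Of 33 complex I genes 1 was higher and 5 lower, of 38 genes of complexes II to V 1 was higher and 3 lower, of 52 ribosomal protein genes 4 were higher and 2 lower, and of 31 proteasome genes 1 was higher and 2 lower. Their medians were -0.062, -0.058, -0.0063 and 0.048. The shares called were 18.2%, 10.5%, 11.5% and 9.68%, against 27.2% of all genes. Median scaling gave 1 lower complex I gene and 0 lower genes of complexes II to V, and without HSALR replicate 2 these numbers were 3 and 0. Lower ribosomal genes numbered 7 without WT replicate 1, 4 without WT replicate 4 and 1 without WT replicate 2 or 3 or HSALR replicate 1 or 4. Lower proteasome genes numbered 0 without WT replicate 2 or HSALR replicate 3 and 1 without any other single array, and higher ones numbered 3 without WT replicate 1. Rpl21, a protein of the large ribosomal subunit, rose by 0.81 ± 0.15 with 0.58 at its second probe.

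Detection itself differed for some genes. For 56 of 8725 genes the tested probe was above background on all 4 HSALR arrays and no WT array. Of these, 52 were called higher. For 16 genes the tested probe was above background on all 4 WT arrays and no HSALR array. Of these, 15 were called lower. Both sets were picked by where the probe was above background, so the direction of these calls was largely set by the choice. The called counts are therefore no separate evidence of a difference. The first set includes Pcdhb12, Dmrtc1a, Ramp3, Idi2, Gdnf, Musk, Kcnip2 and Tead4. It also includes Olfr985, an olfactory receptor gene, higher at least 5.51-fold, and Sprr2k, a gene of the skin's cornified envelope, higher at least 4-fold.

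Separate probes of a gene mostly pointed the same way. Of 644 called genes with several probes all probes had the same sign in 78.3%, against 59.8% of 1544 genes not called, and in 87.3% of the 71 called genes at 2-fold or more. Pdlim2, Camk2d, Ncam1 and Ryr1 are the exceptions among the called genes given above.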

How the data were processed

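RNA from quadriceps muscle was measured on Illumina bead arrays. For each array and each of 25697 probes, the deposited table holds a non-normalized intensity and a detection p-value, per the file headers. Of its cells 60 were not numbers, 14 of them in WT replicate 1 and 46 in ASO 190401 replicate 4, and count as missing values. As an alternative the processed matrix that the authors deposited, also in intensity units, was used, and the tool affy is listed without a role in the submitters' processing notes. Background correction by normexp from the detection p-values (offset 16), quantile normalization over 16 arrays and log2 transformation were done in R 4.3.3 with limma 3.58.1. The 12364 probes above background (detection p under 0.05) on 4 or more arrays were kept, 684 of them without a gene name, and each gene was represented by its probe of highest mean. The platform annotation names 23978 probes, of which 23962 matched RefSeq's gene table of GRCm38.p6. It can be old, and no coordinates of genes are given.

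A linear model with a mean for each of the 4 groups (12 residual degrees of freedom) gave moderated tests, two-sided and with an intensity trend, adjusted by Benjamini-Hochberg at 0.05 over 8725 genes. It was tested on simulated data. These were drawn independently for each gene and without a chip effect, so that test cannot speak to the chips. A probe below background throughout a group has a lower bound in place of a fold. It sets the bright group's mean against a floor for the dim group, averaged over its arrays, and on each array the floor is the lowest signal above background or the probe's own, whichever is higher. Genes were named by rule, as the 20 largest rises and 20 largest falls whose groups do not overlap, up to 8 called members of each list by smallest p (2 where none was called) and a fixed set of muscle genes, and the text gives a part of them. The comparison, its lists and these rules were chosen with earlier results of these data known. Replicates are numbered in accession order and pair no samples.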

Additional observations from a re-analysis of the deposited data

Results flagged for a closer look

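In 18 of 308 sets of 4 arrays (a gene given a value in the text, in 1 genotype) 1 array lay far from the other 3, about the 1 in 20 that chance gives. The largest gap was in Mup2, a urinary protein made mainly in the liver, at 8.70 in HSALR replicate 1 against 4.65 to 5.10 on the other HSALR arrays. Sln stood at 6.80 in WT replicate 1 against 9.32 to 9.79 on the other WT arrays.

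WT replicate 1 also stood apart for Odc1 (12.3), Tiam1 (8.88) and Pi16 (8.99). HSALR replicate 1 stood apart for Pi16 (7.98), Irf1 (8.23) and Kcnip2 (5.41). HSALR replicate 2 did so for Ldb3 (11.7) and Nid1 (8.79), and HSALR replicate 3 for Ogn (9.26), Ramp2 (9.87) and Ifi27l2a (8.98). Among the other WT arrays, replicate 2 stood apart for Ccn2 (10.5), replicate 3 for Serping1 (11.4), and replicate 4 for Kcnab1 (10.8), Celf1 (8.70) and Hspb8 (12.2). All values are log2 normalized intensities, and the causes were not tested.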

How the results depend on the processing

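Of the 148 called genes given a value above, 109 stayed called in each of the 18 to 20 alternatives that gave them a value and 35 lost the call solely when tested against a minimum change of 1.2-fold. These 35 were Arntl, Atf4, Atp1b2, Bin1, Cacnb1, Casq1, Ccn2, Cd74, Celf1, Chrna1, Chrne, Eci1, Etfdh, Fbxo30, Fbxo31, Ghr, H2-D1, Idh3a, Igf1, Igfbp7, Irf1, Jsrp1, Junb, Kcna7, Lpl, Mtor, Odc1, Pdlim3, Psme1, Ramp2, Rbfox2, Samd9l, Slc25a20, Srpk3 and Srsf6. That test called 472 genes higher and 263 lower, and leaving out 1 array gave 1020 to 1284 higher and 905 to 1232 lower. Median scaling gave 954 higher and 946 lower. Normalizing and fitting the 8 saline arrays alone gave 1094 higher and 1026 lower. Fitting the 8 arrays of ASO 190401 and WT saline alone called 247 genes higher against 444 in the fit of all arrays. Acta1 turned to 0.010 and Igtp to -0.00013 under median scaling. Leaving out 1 array gave -0.0015 to 0.12 for Mbnl1, lowest without WT replicate 2, and -0.089 to 0.18 for Igtp, lowest without HSALR replicate 4, and none of these was called. Myh7 was called lower without WT replicate 1 (adjusted p = 0.0266) and Myh4 without WT replicate 3 (adjusted p = 0.0392). Pdlim2 turned to -0.42 (adjusted p = 0.141) when its probe had to be above background on all 8 arrays, since another probe then stands for the gene. An offset of 50 or the authors' values moved the difference of dim genes by over 1.5 times, as given for Hcn2, Chrng and Fosb, and Kcnip2, Gdnf, Musk, Tead4, Olfr985 and Sprr2k are given as bounds. No paired analysis was possible because replicate numbers follow accession order and the labels pair no samples. Signal over background limits genes such as Gdnf and Musk, and the chips limit every difference between the genotypes.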

Other observations

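Histone genes of the replication-dependent clusters, whose proteins package newly made DNA, were looked at after the large rises of H2ac10 and H2ac24 were seen, so the list was chosen on these values and carries no test. Of 51 such genes on the array 35 were tested, 17 were called higher and 0 lower, with a median log2 difference of 0.32. In 16 of the 17 the groups did not overlap. Of all genes 14.1% (1227) were called higher, and in 1018 of those the groups did not overlap. H2ac10 stood at 10.55, 10.43, 10.497 and 10.35 on the HSALR arrays and 6.79, 7.03, 6.46 and 6.43 on the WT arrays, and H2ac24 at 11.43, 11.299, 11.403 and 11.27 on the HSALR arrays and 8.12, 8.63, 8.23 and 8.07 on the WT arrays. They rose by 3.78 ± 0.18 and 3.09 ± 0.17, with same-chip differences of 2.21 ± 0.18 and 1.37 ± 0.17. The called genes were 6 of 8 H4 genes, 5 of 7 H3 genes, 5 of 9 H2A genes, 1 of 9 H2B genes and 0 of 2 H1 genes. Among H4 genes H4c12 rose by 1.398 ± 0.13 and H4c8 by 1.32 ± 0.14, and among H3 genes H3c1 rose by 1.09 ± 0.18. The same-chip median of the 35 genes was 0.089, and 7 of them were higher there, against 5.09% of all genes. Copies within a family are nearly identical in sequence, so a probe may detect several of them and the values of single copies are uncertain. Whether these probes detect histone RNA with a poly(A) tail was not tested.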
